A study of Mus musculus with 24 samples.

Results

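The genes of the mitochondrial respiratory chain and ATP synthase were examined in liver RNA-Seq of lipodystrophic and control mice. Members were the genes whose mouse symbol names a subunit of NADH dehydrogenase (Ndufa, b, c, s or v), succinate dehydrogenase (Sdha to Sdhd), the cytochrome bc1 complex (Uqcr), cytochrome oxidase (Cox4 to Cox8) or ATP synthase (Atp5), together with the protein-coding genes of mitochondrial DNA (mt-Nd, mt-Co, mt-Cytb, mt-Atp). These rules took 112 of the 23972 genes in the count table, 99 of them on nuclear chromosomes and 13 on mitochondrial DNA (mt-encoded). The nuclear members comprised 38 genes of complex I, 8 complex I assembly factors that the name rule also takes (Ndufaf1 to Ndufaf8), 4 of complex II, 8 of complex III, 16 of complex IV, 17 of complex V, and 8 pseudogenes or noncoding genes. Protein-coding genes were assigned to complexes by the start of the symbol, which need not match the complex that holds each product. The rule used names and gene type alone, but it was set with earlier results of these data known.

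The chain takes electrons from NADH at complex I and from succinate at complex II, passes them through coenzyme Q, complex III and cytochrome c to oxygen at complex IV, and pumps protons whose return drives ATP synthase (complex V). Complex II is built from nuclear genes alone, whereas the other complexes combine nuclear subunits with core subunits that are translated inside the mitochondrion. Liver is rich in mitochondria, which oxidize fatty acids and supply ATP for gluconeogenesis and urea synthesis.

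All mice were females carrying Lmna fl/fl, with loxP sites around exons 10 and 11 of Lmna. Control mice (labelled Lmna.WT) lacked Cre, and Lmna ADKO mice (labelled Lmna.KO) carried Adipoq-Cre, which deletes Lmna in adipocytes and not by design in hepatocytes. Mice were 12 to 14 weeks old at the start, were housed at 22°C, ate a 60% high-fat diet from 4 weeks before treatment, and were euthanized 8 weeks after it. Treatment was vehicle or an AAV8 vector for FGF21, a hormone made mainly by the liver; the labels call the vector groups Rescue, and the reading as FGF21 comes from the study's text. There were 7 vehicle-treated controls, 3 FGF21-treated controls, 6 vehicle-treated Lmna ADKO mice and 8 FGF21-treated Lmna ADKO mice, with 1 library per animal. Levels are given as CPM, the read count of a gene scaled to a common library total. Each library total was first multiplied by the library's TMM factor, computed by edgeR, so a lower factor gives a higher CPM. Counts on Fgf21 did not set the FGF21 groups apart from vehicle, at 4.78 ± 2.29 (SD, n = 3) against 4.01 ± 3.18 CPM (SD, n = 7) in controls and 5.36 ± 2.41 (SD, n = 8) against 7.99 ± 2.48 CPM (SD, n = 6) in Lmna ADKO livers. Lmna, which the deletion spares in liver, was at 26.7 ± 2.57 (SD, n = 6) against 18.6 ± 2.47 CPM (SD, n = 7) in Lmna ADKO and control livers on vehicle.

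Total counts ranged from 19863304 to 21510054 per library. The libraries Sample_8974 (Lmna ADKO, FGF21), Sample_8990 (control, FGF21) and Sample_491 (control, vehicle) stood apart from the other 21, so results are given with and without them. A gene was taken as expressed where its log2 CPM averaged 0 or more over all libraries, which held for 89 nuclear and all 13 mt-encoded members. The level of the nuclear members, taken as the mean difference of log2 CPM from the average of all 24 libraries over the 89 expressed nuclear members, was 0.79 in Sample_8974, 0.74 in Sample_8990 and 0.37 in Sample_491. In the other 21 libraries it lay between -0.32 and 0.21. The level of the 13 mt-encoded members was 1.07, 0.63 and 0.31 in these 3 libraries, against -0.44 to 0.22 in the others. The TMM factors of Sample_8974, Sample_8990 and Sample_491 were 0.791, 0.809 and 0.867, against 0.943 to 1.149 in the other 21. A lower factor raises the CPM of every gene in a library, so this scaling enters the higher levels. As a share of unscaled counts, the nuclear members took 1.74, 1.76 and 1.47% in these 3 libraries, and at most 1.45% (Sample_690) in the others. The mt-encoded members took 8.94, 7.34 and 6.42%, and at most 6.76% (Sample_8960) in the others.

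**Figure D1:**
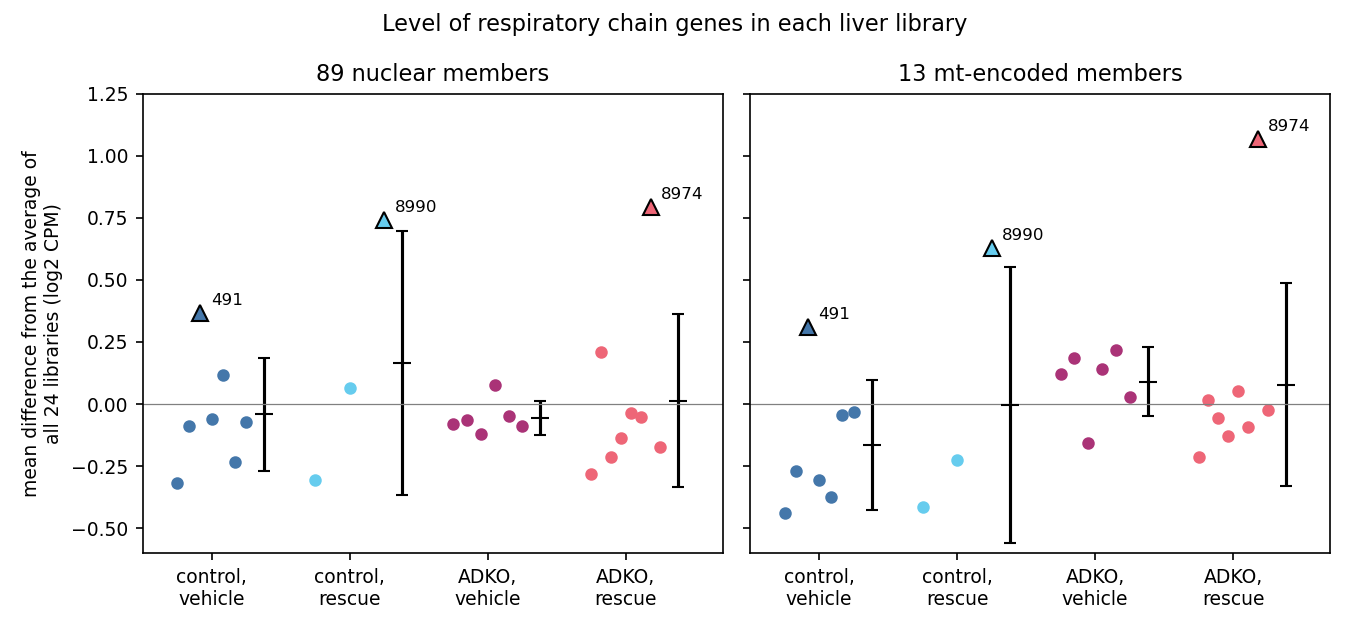
Level of the 89 expressed nuclear members (left) and of the 13 mt-encoded members (right) in each of 24 liver libraries, as the mean difference from the all-library average in log2 CPM. Circles and triangles are libraries, triangles mark Sample_491, Sample_8990 and Sample_8974, and bars give the mean ± SD of each group; both panels show those 3 libraries at the top of their groups.

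Counting of the mt-encoded genes was split with copies of mitochondrial DNA that sit in the nuclear genome. A stretch of chromosome 1 on the minus strand holds 7 annotated pseudogenes that match 7 mt-encoded genes at 99% identity or more over at least 150 bases. Sequences are shown for a pair with no difference and a pair with 1 difference, because they show how little a read has to tell a mitochondrial transcript from its copy. The first 60 bases of mt-Co2 (GRCm38 chrM:7013-7072, plus strand), which encodes a core subunit of complex IV, occur unchanged at the start of its copy Gm28661 (chr1:24614885-24615565, minus strand), and the identity runs over 681 of the 684 bases of mt-Co2. The first 32 bases of mt-Nd3 (chrM:9459-9490, plus strand) and of its copy Gm28438 (chr1:24613088-24613119, minus strand) differ by T3C, counted from the first base of mt-Nd3, and the differing base is in capitals.
mt-Co2 and Gm28661: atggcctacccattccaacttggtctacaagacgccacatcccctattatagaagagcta
mt-Nd3: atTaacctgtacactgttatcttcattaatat
Gm28438: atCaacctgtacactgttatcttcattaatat

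Most counts of such pairs were assigned to the copy. Of the summed counts of mt-Co2 and Gm28661, 92.5% (median over libraries, range 91.1 to 93.3) lay on the copy, with a median of 14746 counts on mt-Co2 and 174946 on Gm28661. The copies held a median of 90.2% for mt-Atp6, 92.1% for mt-Co3, 93.5% for mt-Nd3 and 91.5% for mt-Nd4l. They held 3.55% for mt-Co1 (range 1.71 to 22.4) and 2.20% for mt-Nd4, whose copies cover part of the gene. No copy that met the same limits was found for mt-Nd1, mt-Nd2, mt-Nd5, mt-Nd6, mt-Cytb or mt-Atp8. Among nuclear members 12 had such a copy elsewhere, and only Ndufb4 lost the larger part, with 66.5% of the pair's counts on the processed pseudogene Ndufb4c, followed by Atp5g2 (11.6% on Gm10175) and Atp5l (10.5% on Gm10221). Therefore, mt-encoded results were also computed with the counts of each copy added to its member.

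Per length, 11 of the 13 mt-encoded genes were above every nuclear member, and mt-Nd3 and mt-Nd4l, at 132 and 87.9 CPM per kb as counted, were at 2197 and 1149 with their copies added. Averaged over all libraries, mt-Co1, the catalytic subunit of complex IV, stood at 14073 CPM per kb of exon, mt-Cytb, the core of complex III, at 10034, mt-Nd1 at 6525, mt-Nd5 at 1772 and mt-Nd6, the only protein gene read from the opposite strand, at 1404 CPM per kb. As counted, mt-Co2 was at 1139 CPM per kb, and with its copy added it was at 14742, next to the 14976 CPM per kb of mt-Co1 treated in the same way. The nuclear members with the highest values were Cox6a1 with 431 and Cox8a with 355 CPM per kb, both small subunits of complex IV, and the ATP synthase subunits Atp5a1 with 337 and Atp5b with 327 CPM per kb. The 8 assembly factors lay between 2.27 and 16.7 CPM per kb. Exonic length joined the exons of all annotated transcripts of a gene, so it can exceed the length of the transcript expressed and lower the value per kb.

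The first comparison was between Lmna ADKO and control mice on vehicle. All 13 mt-encoded genes had higher fitted values in Lmna ADKO livers, with a median log2 fold change of 0.15 (range 0.03 to 0.66), and the median over all genes was 0.00. Only mt-Nd5, a core complex I subunit, passed both thresholds (adjusted p under 0.05 by edgeR's quasi-likelihood test over all genes, and fold above 1.5), and mt-Nd4l, a small core subunit of complex I, passed the p threshold alone, and 4 of the 13 had an unadjusted p under 0.05. None of the 99 nuclear members passed the p threshold, with 4 of them at an unadjusted p under 0.05. Over all genes 8.48% passed both thresholds and 15.1% the p threshold (8.35% with higher values), and 24.4% of the 12492 expressed genes passed the p threshold. DESeq2 at the p threshold gave mt-Nd5, mt-Nd4l and mt-Atp8 of the mt-encoded and Ndufaf5 and Ndufb10 of the nuclear members, and 25.9% of the genes to which it gave an adjusted p.

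For mt-Nd5, the lowest, median and highest CPM were 1579, 2301 and 3446 in vehicle-treated controls and 3158, 4096 and 4455 in vehicle-treated Lmna ADKO livers. FGF21-treated controls had 2215, 2051 and 3851 CPM, the last in library Sample_8990, and FGF21-treated Lmna ADKO livers 2930, 3301 and 4316 CPM. The vehicle groups overlapped through the control libraries Sample_797 and Sample_8997, which were above the lowest Lmna ADKO library. The log2 fold change on vehicle was 0.66 (SE 0.17, adjusted p = 0.00625), a fold of 1.58. It was 0.69 (SE 0.14, adjusted p = 0.000935) without the 3 libraries and 0.66 (adjusted p = 0.00622) with copies added. Leaving out control library Sample_699, the lowest, gave 0.58 (adjusted p = 0.0168), under the fold threshold. Animal numbers have 3 digits in 6 of 7 vehicle-treated controls and in 1 of 6 vehicle-treated Lmna ADKO mice, and with this as a covariate the log2 fold change of mt-Nd5 was 0.56 (adjusted p = 0.0680), that of mt-Nd4l 0.61 (adjusted p = 0.0176), and the median over the 13 was -0.01, with 6 of 13 higher. Genotype and the number of digits thus largely overlap on vehicle. The only 4-digit control had 3308 CPM, within the 3158 to 4455 CPM of the 5 Lmna ADKO livers with 4 digits.

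mt-Nd6, another complex I subunit, gave 358, 523 and 734 CPM as the lowest, median and highest in vehicle-treated controls and 740, 809 and 924 in vehicle-treated Lmna ADKO livers. These ranges did not overlap, which held for 2 members, mt-Nd6 and the nuclear Ndufaf5, and for 7.95% of all genes. The highest control, at 734 CPM beside the lowest Lmna ADKO value of 740, was Sample_8997, the only vehicle-treated control with a 4-digit number. The log2 fold change of mt-Nd6 was 0.55 (SE 0.25, adjusted p = 0.152) with all libraries and 0.61 (SE 0.12, adjusted p = 0.000535) without the 3, of which Sample_8990 and Sample_8974 reached 1195 and 1843 CPM. mt-Nd5 and mt-Nd6 adjoin on opposite strands (chrM:11742-13565 and chrM:13552-14070), and as the strand setting of the counting is not given in the sources used here, reads at their shared end cannot be assigned.

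mt-Nd4l had 14.5, 21.1 and 28.5 CPM as the lowest, median and highest in vehicle-treated controls and 22.5, 30.2 and 39.2 in vehicle-treated Lmna ADKO livers, with overlap. Its log2 fold change was 0.56 (SE 0.14, adjusted p = 0.00610). With the counts of its copy Gm10222 added, the controls gave 164, 274 and 521 CPM and the Lmna ADKO livers 268, 418 and 565, and the log2 fold change was 0.46 (SE 0.26, adjusted p = 0.277). The pass of mt-Nd4l thus depended on how reads were split with the copy. With copies added, 11 of 13 mt-encoded genes had higher fitted values, with a median log2 fold change of 0.09. Without the 3 libraries, the median over the 13 was 0.26 as counted and 0.22 with copies added. As counted, mt-Nd5, mt-Nd6, mt-Nd4l, mt-Atp8 (log2 fold change 0.36, adjusted p = 0.0105), a subunit of ATP synthase, and mt-Nd1 (0.33, adjusted p = 0.0225), a membrane subunit of complex I, then passed the p threshold, where 9.94% of all genes passed it in that direction. With copies added as well, mt-Nd4l was not among those that passed. mt-Co1, mt-Co2 and mt-Co3 of complex IV and mt-Cytb of complex III did not pass in any of these fits, with log2 fold changes of 0.20, 0.17, 0.30 and 0.23 without the 3 libraries. Sample_491 was the vehicle-treated control with the highest mt-encoded level. Leaving it out raises the median by itself, so the passes without the 3 libraries are no separate support.

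**Figure D2:**
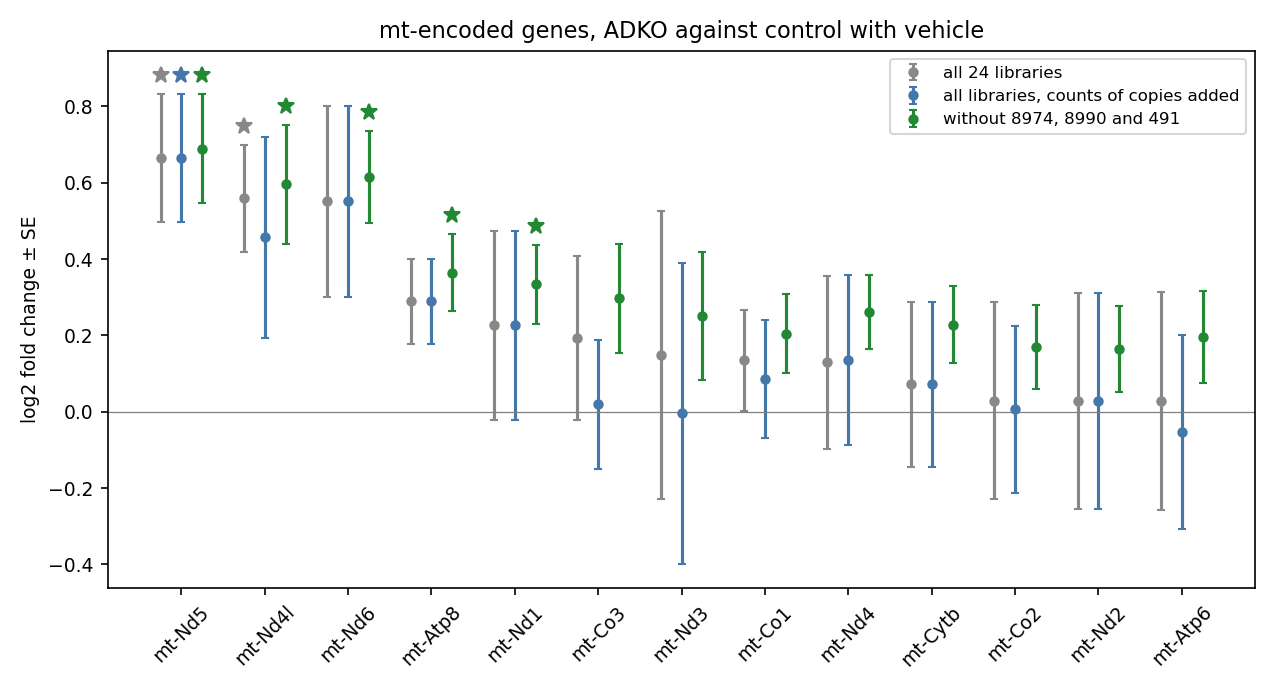
Log2 fold change of the 13 mt-encoded genes, Lmna ADKO against control on vehicle, with SE bars, in 3 fits. Stars mark an adjusted p under 0.05; mt-Nd5 carries a star in each of the 3 fits, mt-Nd4l loses it with copies added, and mt-Nd6, mt-Atp8 and mt-Nd1 carry one without libraries Sample_8974, Sample_8990 and Sample_491.

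The nuclear members showed no common direction on vehicle. Of the 99, 43 had higher fitted values in Lmna ADKO livers, and the median log2 fold change was -0.02. By complex, the medians were -0.06 for complex I (13 of 38 higher), -0.03 for its assembly factors (4 of 8), -0.06 for complex II (1 of 4), 0.00 for complex III (4 of 8), 0.05 for complex IV (12 of 16) and -0.10 for complex V (5 of 17). Several catalytic and core subunits had small log2 fold changes. Ndufs1, the largest iron-sulfur subunit of complex I, had a log2 fold change of 0.18 (SE 0.10), and Ndufv1, which binds NADH, had -0.08 (SE 0.11). Sdha, the flavoprotein of complex II, had 0.09 (SE 0.09) and its iron-sulfur partner Sdhb -0.27 (SE 0.24). Uqcrfs1, the Rieske iron-sulfur protein of complex III, had 0.05 (SE 0.09), and Uqcrc1 -0.14 (SE 0.14). Cox5a of complex IV had 0.01 (SE 0.13), and the catalytic Atp5b and its partner Atp5a1 of complex V had 0.03 (SE 0.11) and 0.12 (SE 0.09). The median SE of the expressed nuclear members was 0.18 with all libraries and 0.10 without the 3.

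With this smaller error, 9 nuclear members passed the p threshold on vehicle, 7 of them higher and 2 lower in Lmna ADKO livers, against 18.3% of all genes (9.94% higher and 8.38% lower). The 3 libraries stand out by the level of these same members, and Sample_491 was the vehicle-treated control with the highest nuclear level. Leaving them out thus lowers the SE and moves the nuclear median to 0.05 by itself, so these passes are no separate support. Ndufaf5, an assembly factor of complex I, had 2.40, 3.45 and 3.98 CPM as the lowest, median and highest in vehicle-treated controls and 4.07, 4.41 and 4.72 in vehicle-treated Lmna ADKO livers. Its log2 fold change was 0.42 (adjusted p = 0.0667) with all libraries and 0.46 (SE 0.13, adjusted p = 0.0113) without the 3. The other members that were higher without the 3 libraries were Uqcr10 of complex III (0.34, SE 0.11), Cox7a2 of complex IV (0.34, SE 0.11), Ndufs4 (0.27, SE 0.09) and Ndufs5 (0.27, SE 0.09) of complex I, Cox7a1, and Ndufb1-ps (0.35, SE 0.11), listed as noncoding. The vehicle groups did not overlap for Uqcr10, Cox7a2, Ndufaf5, mt-Nd6 and mt-Atp8 when the 3 libraries were left out, as for 8.81% of all genes. The members that were lower were the complex I subunits Ndufs7 (-0.38, SE 0.11, adjusted p = 0.0168) and Ndufb10 (-0.31, SE 0.10, adjusted p = 0.0239).

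Ndufs7, which holds an iron-sulfur cluster near the quinone site, shows how library Sample_491 acted. Its CPM in vehicle-treated controls were 61.2, 72.5 and 127 as the lowest, median and highest, the last in Sample_491, and 47.1, 58.5 and 62.9 in vehicle-treated Lmna ADKO livers. The groups overlapped through the lowest control. The log2 fold change was -0.53 (SE 0.27, adjusted p = 0.210) with all libraries.

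**Figure D3:**
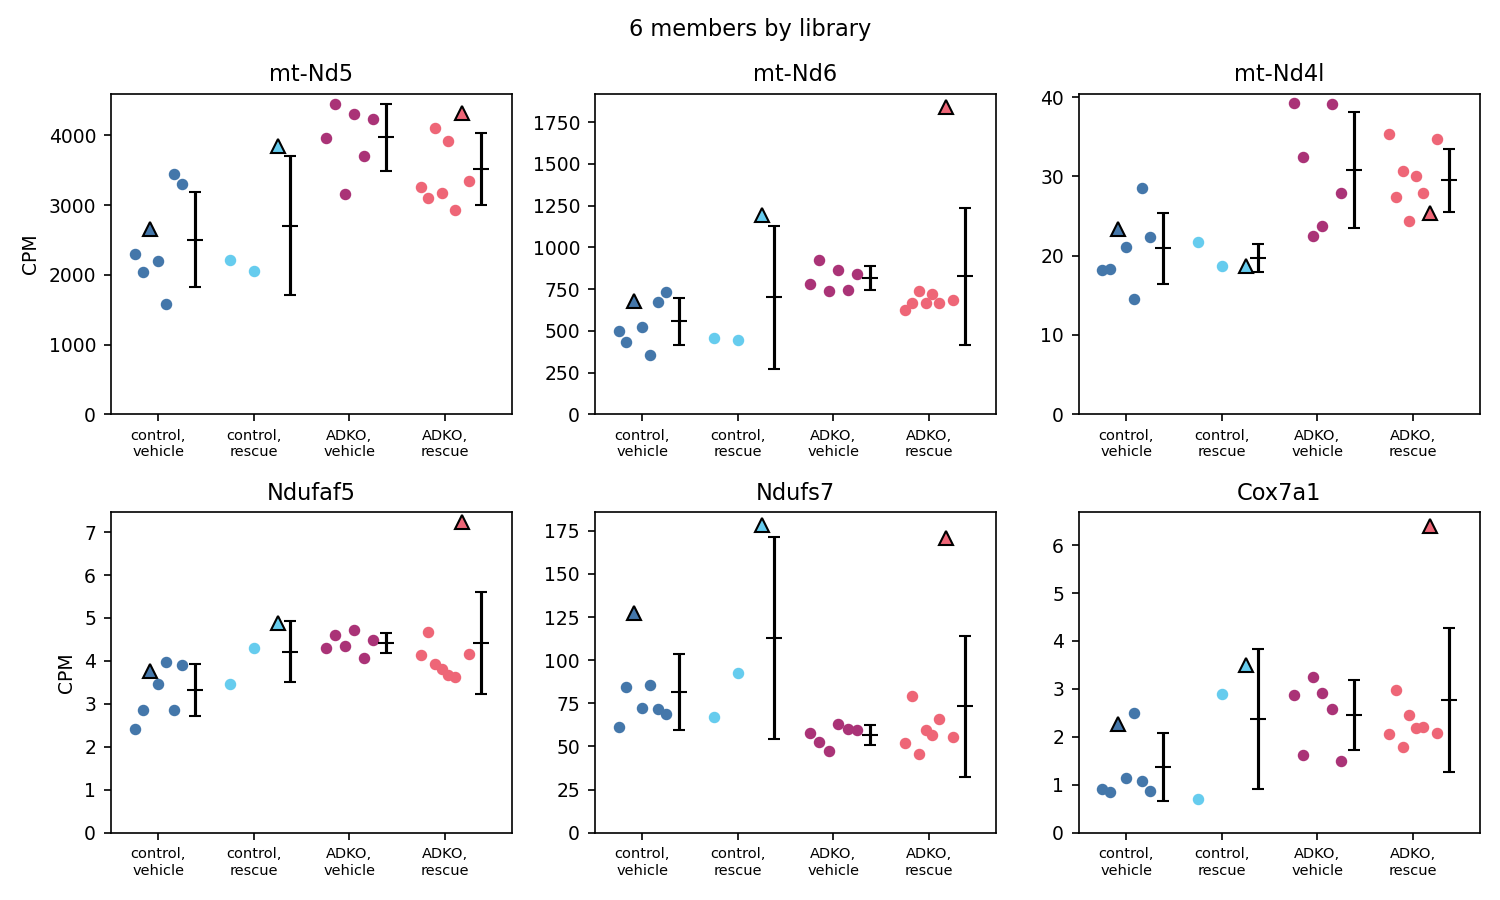
CPM of 6 members in each library of the 4 groups, with mean ± SD bars and triangles for libraries Sample_491, Sample_8990 and Sample_8974. On vehicle, mt-Nd6 and Ndufaf5 do not overlap between control and Lmna ADKO, whereas mt-Nd5, mt-Nd4l, Ndufs7 and Cox7a1 do.

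Tissue-specific isoforms of complex IV were at the edge of detection. Cox4i2, Cox6a2 and Cox8b, the isoforms known from lung or from heart and skeletal muscle, had 0 to 6, 0 to 7 and 0 to 3 counts per library, while their liver counterparts Cox4i1, Cox6a1 and Cox8a had at least 7836, 4386 and 3345. Cox6b2, a testis isoform, had 1 to 31 counts and Cox6b1 at least 3160. Cox7a1, the heart and muscle isoform of Cox7a2, had 15 to 109 counts. Its CPM were 0.844, 1.07 and 2.51 as the lowest, median and highest in vehicle-treated controls and 1.496, 2.73 and 3.26 in vehicle-treated Lmna ADKO livers. The log2 fold change was 0.85 (SE 0.35, adjusted p = 0.114) with all libraries and 1.01 (SE 0.29, adjusted p = 0.0152) without the 3, when it was the only nuclear member past both thresholds, as 8.41% of all genes were. The skeletal muscle markers Acta1, Ckm, Myh4 and Tnnt3 had at most 4 counts in each library except Sample_690 and Sample_8959 of the FGF21-treated Lmna ADKO group (35 to 134 counts). The remaining listed marker, Mylpf, had 52 and 35 counts in Sample_690 and Sample_8959 and 4 to 15 in every other library. These 2 libraries are not in the vehicle comparison. Ndufa4l2, the paralogue of Ndufa4, had 19 to 45 counts and a log2 fold change of -0.40 (SE 0.22, adjusted p = 0.244) on vehicle.

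Nuclear and mt-encoded members were then compared within each library, as the mt-encoded minus the nuclear level on the log2 scale. On vehicle this gave -0.12 ± 0.22 in the 7 controls and 0.14 ± 0.12 in the 6 Lmna ADKO livers (mean ± SD). On FGF21 it was -0.17 ± 0.10 (SD, n = 3) in controls and 0.06 ± 0.14 (SD, n = 8) in Lmna ADKO livers. The ranges overlapped on vehicle (-0.49 to 0.19 against -0.04 to 0.27) and on FGF21 (-0.29 to -0.11 against -0.19 to 0.27). Adding copies gave -0.11 ± 0.25 and 0.13 ± 0.09 on vehicle. On this scale Sample_8990 (-0.11) and Sample_491 (-0.06) lay within the range of the other 21, -0.494 to 0.265. Sample_8974, at 0.272, was the highest of all, just above that range.

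As a share of all counts, the 13 mt-encoded genes took 4.42, 4.86 and 6.42% (lowest, median and highest) in vehicle-treated controls and 5.79, 6.32 and 6.76% in vehicle-treated Lmna ADKO livers. The highest control was library Sample_491, and without it the highest was 5.80%, just above the lowest Lmna ADKO library. FGF21-treated controls had 4.68, 4.69 and 7.34%, the last in Sample_8990, and FGF21-treated Lmna ADKO livers 5.17, 5.72 and 8.94%, the last in Sample_8974. With copies added, the shares were 6.74 to 9.83% in vehicle-treated controls and 8.45 to 9.43% in vehicle-treated Lmna ADKO livers, so the ranges overlapped. The highest control was again Sample_491, and without it the highest was 8.37%, just below the lowest Lmna ADKO library. The nuclear members together took 1.303 ± 0.122% (SD, n = 7) and 1.397 ± 0.032% (SD, n = 6) on vehicle. In liver tissue, fewer cells of a type and less RNA per cell cannot be told apart.

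On FGF21, Lmna ADKO livers were compared with controls. No nuclear or mt-encoded member passed the p threshold, against 2.88% of all genes past both and 3.85% past the p threshold, and 3 nuclear members and 1 mt-encoded member had an unadjusted p under 0.05. DESeq2 at the p threshold gave mt-Nd4l alone of the members, and 11.6% of the genes to which it gave an adjusted p. The median log2 fold change was -0.17 over the nuclear members (17 of 99 higher) and 0.04 over the mt-encoded ones (10 of 13 higher), with 0.02 over all genes. The control group held 3 libraries, and both directions turned on Sample_8990 and Sample_8974. Without Sample_8990 the medians were 0.16 and 0.50, without Sample_8974 they were -0.35 and -0.19, and without Sample_8974, Sample_8990 and Sample_491 they were 0.02 and 0.22. Without Sample_8974 alone, Ndufs7 (-0.94, adjusted p = 0.0112), Cox4i1 (-0.63, adjusted p = 0.0487) and mt-Nd4l (0.60, adjusted p = 0.0367) passed both thresholds, as did 4.79% of all genes. Without Sample_8958, a control, 2 nuclear members did, Ndufaf6 (-0.72, adjusted p = 0.0290) among them, and 3.1% of all genes. Without the 3 libraries none did, and mt-Nd5, mt-Nd6 and mt-Nd4l had log2 fold changes of 0.68 (adjusted p = 0.0751), 0.60 (adjusted p = 0.0622) and 0.58 (adjusted p = 0.200), beside 0.69, 0.61 and 0.60 on vehicle.

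The effect of FGF21 in controls was examined in 3 libraries against 7. Nuclear members had a median log2 fold change of 0.31, with 89 of 99 higher, and mt-encoded members one of 0.25, with 12 of 13 higher, against 0.00 over all genes. None passed the p threshold, while 0.0542% of all genes passed both thresholds, and 1 nuclear and 0 mt-encoded members had an unadjusted p under 0.05. The medians were 0.30 for complex I, 0.10 for complex II, 0.34 for complex III, 0.34 for complex IV and 0.26 for complex V. The largest values by complex among expressed members were Ndufb2 with 0.52 (SE 0.33), Sdhb with 0.41 (SE 0.29), Uqcr11 with 0.50 (SE 0.30), Cox7a1 with 0.78 (SE 0.43) and Atp5j2 with 0.42 (SE 0.28). Cox4i1 had 377, 553 and 1062 CPM in the FGF21-treated controls, against 356, 470 and 689 as the lowest, median and highest on vehicle. The highest of each was Sample_8990 and Sample_491. Without the 3 libraries, the median was -0.01 for the nuclear members (45 of 99 higher) and -0.08 for the mt-encoded ones (1 of 13 higher), and Cox4i1 went from 0.49 (SE 0.26) to 0.08 (SE 0.14).

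In Lmna ADKO livers, FGF21 was compared with vehicle in 8 against 6 libraries. The median log2 fold change was 0.14 over the nuclear members (83 of 99 higher) and 0.03 over the mt-encoded ones (8 of 13 higher). None of the 112 passed the p threshold and none had an unadjusted p under 0.05, while 0% of all genes passed both thresholds and 1608 had an unadjusted p under 0.05. Without the 3 libraries the medians were -0.04 (33 of 99 higher) and -0.10 (1 of 13 higher), and leaving out Sample_8974 alone gave -0.03 and -0.10. Sdhb had 136, 161 and 401 CPM as the lowest, median and highest on FGF21 and 138, 159 and 194 on vehicle, and its log2 fold change was 0.26 (SE 0.23) with and 0.01 (SE 0.11) without the 3 libraries. The effects of FGF21 in Lmna ADKO and control livers differed for no member by the interaction test (medians of -0.14 nuclear and -0.11 mt-encoded), with 0.00417% of all genes past both thresholds and 1 nuclear and 0 mt-encoded members at an unadjusted p under 0.05. Both comparisons with vehicle rest on the 3 libraries for their direction, and DESeq2 called no member in either.

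**Figure D4:**
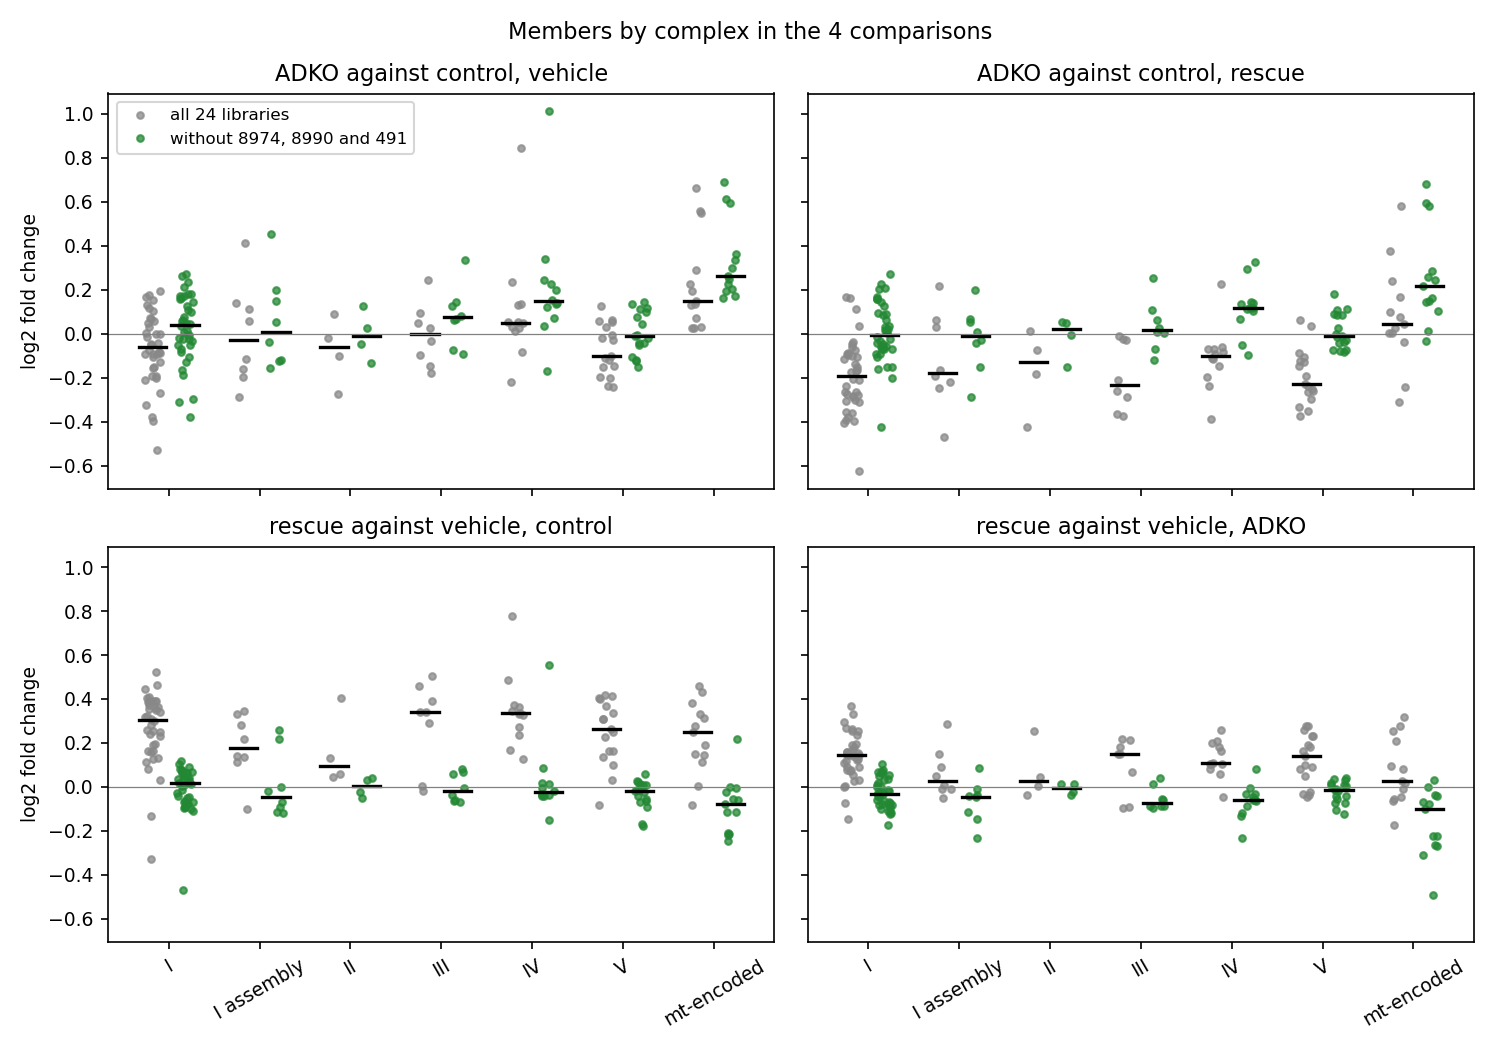
Log2 fold change of each expressed protein-coding member, by complex, in the 4 comparisons, for all 24 libraries (grey) and without Sample_8974, Sample_8990 and Sample_491 (green), with black bars at the medians. In both comparisons with vehicle the nuclear complexes move from above 0 to about 0 when the 3 libraries are left out, while the mt-encoded genes stay above 0 in the vehicle comparison of genotypes.

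Within the 3 libraries, members did not stand higher by the same amount. Against the median of the other libraries of the same genotype, 85 of the 89 expressed nuclear members were higher in Sample_8974, 87 in Sample_8990 and 86 in Sample_491, with median differences of 0.94, 0.90 and 0.48 on the log2 scale. The same differences had medians of -0.07, -0.05 and -0.03 over 9592 other protein-coding genes. Ndufs1 was the lowest nuclear member in each, at -0.69, -0.31 and -0.19, and has the longest exonic length of the 89, at 8086 bases. Sdha, Uqcrfs1, Cox7a2l and Atp5a1 were the lowest of their complexes in Sample_8990. Of the mt-encoded genes, mt-Nd3 differed most in Sample_8974 (2.13), mt-Nd2 in Sample_8990 (1.38) and mt-Cytb in Sample_491 (0.84), while mt-Nd4l was the lowest in all 3 (-0.24, -0.08 and 0.23).

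The differences went with gene length over the whole table. The slope of log2 CPM, relative to the median of the genotype, on log2 exonic length over those 9592 genes, none of them a member, was -0.33 in Sample_8974, -0.29 in Sample_8990 and -0.15 in Sample_491, and -0.11 to 0.13 in the other 21, so shorter genes were relatively higher in the 3 libraries. Nuclear members were short, with a median exonic length of 1675 bases against 4535 for the 9592 genes, and the mt-encoded genes had 784. Among the 89 nuclear members, the shorter 45 and the longer 44 differed little in median log2 fold change with all libraries. For FGF21 against vehicle these medians were 0.34 and 0.25 in controls and 0.14 and 0.13 in Lmna ADKO livers. The 7 libraries with the lowest slopes (Sample_8974, Sample_8990, Sample_491, Sample_690, Sample_8972, Sample_8989 and Sample_699) were also the 7 with the highest nuclear level. The mt-encoded level did not match in this way. Sample_8974, Sample_8990 and Sample_491 ranked 1, 2 and 3 from the highest. Sample_8972, Sample_690, Sample_8989 and Sample_699 ranked 6, 10, 19 and 22. The shortest mt-encoded genes, mt-Atp8 (204 bases) and mt-Nd4l (297), had the lowest differences in Sample_8974 (0.10 and -0.24) and Sample_8990 (0.14 and -0.08). In Sample_491 these genes were at 0.35 and 0.23. With the slope as a covariate, the median log2 fold change of FGF21 over the nuclear members was 0.03 in controls and -0.03 in Lmna ADKO livers, and that of the mt-encoded ones -0.03 and -0.10. Between genotypes on vehicle, 18 nuclear members (6 higher and 12 lower) and 4 mt-encoded members (mt-Atp8, mt-Nd4l, mt-Nd5 and mt-Nd6) then passed the p threshold, as did 23% of all genes (12.2% higher and 10.8% lower). Ndufb2, with 5628 bases of exon over all its annotated transcripts, was the highest nuclear member in Sample_8974, at 1.62. Such lengths can exceed that of a single transcript, as for Ndufab1 with 6883 bases of exon and an annotated transcript of 1416. What set the 3 libraries apart was not tested.

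**Figure D5:**
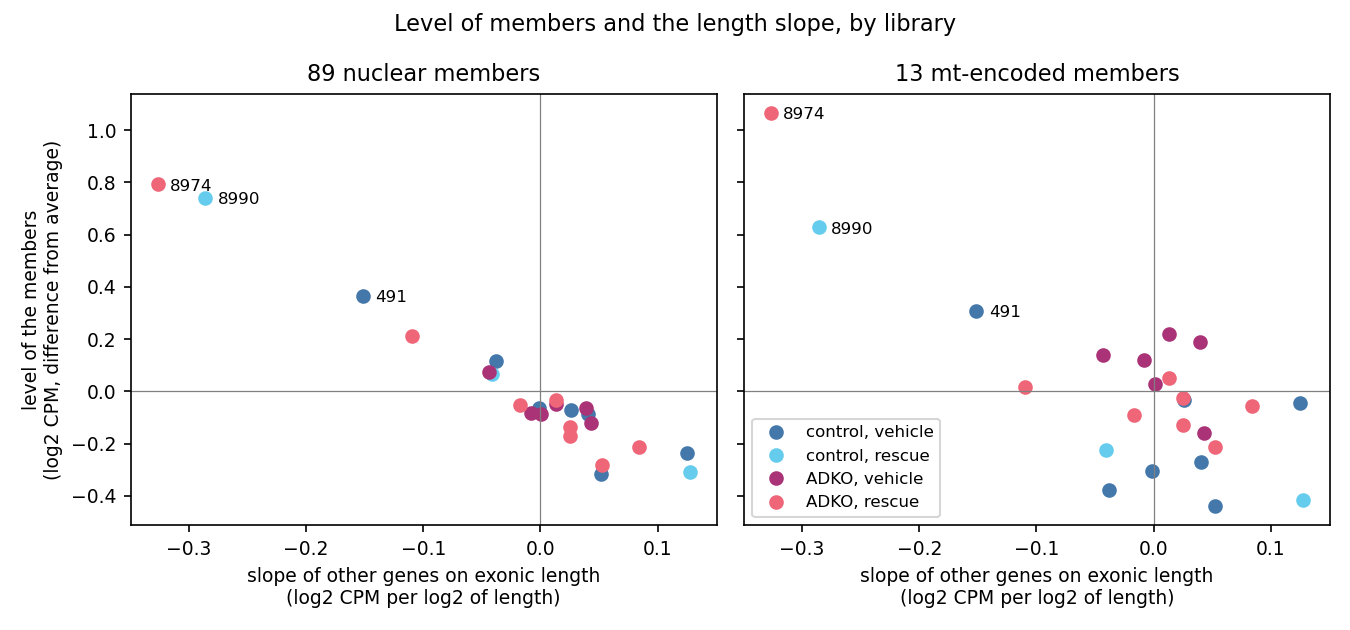
Level of the nuclear (left) and mt-encoded (right) members in each library, in log2 CPM relative to the average, against the slope of log2 CPM on log2 exonic length over 9592 other genes. Points are the 24 libraries, coloured by group. Sample_8974, Sample_8990 and Sample_491 lie at the lower slopes and higher levels. The 7 lowest slopes belong to the 7 highest nuclear levels, but not to the 7 highest mt-encoded levels.

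Genes that serve the chain but are not named by the rule were examined in 4 lists, with counts at the p threshold on vehicle, which 15.1% of all genes and 24.4% of expressed genes passed. Of 19 electron carriers and coenzyme Q genes, 2 rose and 2 fell in Lmna ADKO livers, with a median log2 fold change of -0.04. Coq7, a hydroxylase of coenzyme Q synthesis, rose by 0.82 (SE 0.14, adjusted p = 0.000129) and Pdss1, which makes its isoprenoid tail, by 0.70 (SE 0.16), whereas Etfb, an electron carrier from fatty acid oxidation, fell by 0.55 (SE 0.16) and Dhodh, of pyrimidine synthesis, fell by 0.29 (SE 0.10). Cycs, cytochrome c, had a higher median in Lmna ADKO livers, with 61.0, 72.4 and 104 CPM as the lowest, median and highest in vehicle-treated controls and 99.8, 104 and 113 CPM in Lmna ADKO livers. Cycs passed both thresholds only without the 3 libraries, at 0.65 (SE 0.09). Of 37 assembly factors outside the rule, Cox15 rose by 0.39 (SE 0.10), and Sco2, a copper carrier for complex IV, fell by 0.97 (SE 0.33), as did Tmem126b of complex I by 0.28 (SE 0.10).

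Of 20 genes that replicate, transcribe or process mitochondrial RNA and DNA, 0 rose and 4 fell. The same 15.1% and 24.4% count both directions. With lower values alone, 1621 of all 23972 genes and 1439 of the 12492 expressed genes passed. Twnk, the helicase of mitochondrial DNA, fell by 0.51 (SE 0.10, adjusted p = 0.000448), Polg, its polymerase, fell by 0.29 (SE 0.09), Mtpap, the mitochondrial poly(A) polymerase, fell by 0.30 (SE 0.09), and Mterf4 fell by 0.58 (SE 0.12). Tfam, which packages mitochondrial DNA, averaged 48.8 ± 3.26 CPM over the 7 controls and 42.1 ± 2.93 CPM over the 6 Lmna ADKO livers on vehicle (mean ± SD) and did not pass. Of 13 regulators of biogenesis, only Myc rose, by 0.95 (SE 0.21), and Ppargc1a, the coactivator PGC-1α, was at 7.02 ± 1.16 (SD, n = 7) and 7.59 ± 4.43 CPM (SD, n = 6). On FGF21, Coq7 (0.66), Twnk (-0.48) and Myc (1.03) of these lists passed again between genotypes, and the comparisons of FGF21 with vehicle gave 0 in each list.

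Markers of other cell types moved with genotype beside these results, and their part in them was not tested. Of the vehicle comparison's marker lists at the p threshold, 3 of 5 stellate cell and fibroblast genes were higher in Lmna ADKO livers (Col3a1, Dcn and Lrat), and their summed level was 253 to 395 CPM against 172 to 266. Of 6 hepatocyte genes, Serpina1a and Cps1 were lower, with summed levels of 66225 to 100836 CPM against 76108 to 134009. Of 4 endothelial genes, Lyve1 and Pecam1 were higher and Stab2 was lower (131 to 175 against 129 to 160 CPM), and of 3 erythroid genes Alas2 was higher (467 to 2291 against 175 to 1285 CPM). None of 4 macrophage, 4 cholangiocyte, 4 lymphocyte, 3 adipocyte or 5 skeletal muscle genes passed, and the adipocyte genes summed to at most 0.903 CPM in any library, so that the hepatocyte genes exceeded every other list, as the labelled tissue implies. Without the 3 libraries, 2 of 5 stellate cell genes passed, and Krt19 of the cholangiocyte, Nkg7 of the lymphocyte and Kdr of the endothelial list were added.

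The pseudogenes and noncoding members complete the list. Ndufb1-ps and Ndufb4c were measured at 348 to 876 and 701 to 1697 counts, and the other 6 had at most 7 counts in a library.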

How the data were processed

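Liver RNA was measured in 24 libraries. Per the labels, polyA RNA was enriched with oligo dT beads and second strands were made with dUTP. The deposited table holds whole read counts by gene that the authors left unnormalized, with genes at 0 in every sample removed. The submitters' processing notes name cutadapt 4.8, FastQC 0.11.8, STAR 2.7.8a and RSEM 1.3.3 on GRCm38, and the methods Ensembl 102. RSEM gives estimated counts, whereas the deposited ones are whole, so they may be rounded, and how reads that fit 2 genes were split is not given in the sources used here. Of 23972 genes, 23900 were named and located with GENCODE M21 (GRCm38). The labels' Rescue was read as FGF21 from the study's text. The methods name another sequencing provider than the labels.

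After TMM scaling, edgeR 4.0.16 (R 4.3.3) was run with estimateDisp, robust glmQLFit and glmQLFTest in 1 fit of the 4 groups over all genes, with Benjamini-Hochberg adjustment and the study's thresholds (adjusted p under 0.05, fold above 1.5). SE was taken from the F statistic as the size of the log2 fold change over the root of F. The fits were tested on simulated counts. Copies were found with blastn 2.17.0 among GENCODE transcripts (at least 99% identity over 150 bases). Each library is 1 animal, by the numbers in the labels. The 67 pairs of libraries within groups differed far beyond counting noise (chi-square per degree of freedom at least 13.1), so none was merged.

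Named members were the mt-encoded genes, core subunits and isoform pairs, members called in a comparison, and the largest change per complex and comparison; others were named where a count was small, after their values were seen. The members and lists were chosen with earlier results of these data known. Alternatives were DESeq2 1.42.0, its size factors, filterByExpr, the p threshold alone, the number of digits of the animal number or the length slope as covariate, mt-encoded genes left out of the totals, only the groups compared, leaving out each library, and leaving out Sample_8974, Sample_8990 and Sample_491. Adding copies was chosen after the data were seen.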

Additional observations from a re-analysis of the deposited data

Results flagged for a closer look

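Within groups of 4 to 10 libraries, 38 of 159 sets of values had a highest or lowest library that stood far from its nearest neighbour by Dixon's test at 95%. Chance gives about 1 in 20 for independent sets that were not selected. These sets share libraries and are not independent. Some of their genes were named for the largest change in comparisons that hold Sample_8974, a library set apart beforehand, so that share is no baseline here. Library Sample_8974, of the FGF21-treated Lmna ADKO group, accounted for 32 of them, and what set it apart was not tested.

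Its level over members, relative to the average of all libraries on the log2 scale, stood apart at 0.79 for the nuclear members, 0.83 for complex I, 0.69 for the complex I assembly factors, 0.98 for complex IV, 0.75 for complex V and 1.07 for the mt-encoded members. The mt-encoded members took 8.94% of its counts, and the next library of the group had 6.39%.

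Among single nuclear genes, Sample_8974 was highest in log2 CPM for Ndufb2 (7.07), Ndufs7 (7.42), Ndufaf3 (5.11) and Ndufaf5 (2.87) of complex I and its assembly, Sdhb (8.65) of complex II, and Uqcr11 (8.29), Uqcrb (8.01) and Uqcrc1 (8.77) of complex III. The same held for Cox4i1 (9.99), Cox6a1 (9.57), Cox7a1 (2.7003), Cox7a2 (8.10) and Cox8a (8.67) of complex IV, and for Atp5g1 (8.73), Atp5h (8.44) and Atp5l (8.39) of complex V. Ndufs1 (6.04) was the exception, where Sample_8974 was the lowest of its group. Of the mt-encoded genes, Sample_8974 was highest for mt-Nd1 (13.83), mt-Nd2 (13.82), mt-Nd3 (7.34), mt-Nd4 (14.12), mt-Nd6 (10.85), mt-Cytb (14.73), mt-Co2 (11.02) and mt-Atp6 (11.07).

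Library Sample_491 was the highest vehicle-treated control for Uqcrb (7.47), mt-Atp6 (10.10) and mt-Cytb (13.98). Library Sample_482 was the lowest vehicle-treated control for Uqcrfs1 (7.42). Among vehicle-treated Lmna ADKO livers, Sample_8966 was lowest for mt-Nd2 (11.91) and Sample_8972 highest for Atp5b (10.58). The group of FGF21-treated controls, with 3 libraries including Sample_8990, is too small for this test.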

How the results depend on the processing

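No paired analysis was possible because the groups share no animal number. Of 494 values of the counts past both thresholds and of the median log2 fold changes under alternatives, 475 stayed within the limits set (a count within 1.5 times, a median within the spread), and 19 moved. On vehicle, 1 nuclear member (Cox7a1) instead of 0 passed both thresholds with the length slope as a covariate, with only the groups compared, without libraries Sample_8974, Sample_8990 and Sample_491, and without them and with copies added. For the mt-encoded members the count went from 1 to 3 without the 3 libraries, to 2 without them and with copies added, and to 2 by the p threshold alone. On FGF21 the length slope gave 1 nuclear member between genotypes, Cox6a2, which had at most 7 counts. Leaving out 1 library at a time gave 0 to 1 nuclear and 0 to 2 mt-encoded members on vehicle, where mt-Nd5 failed the fold threshold without Sample_699 and mt-Nd4l met it without Sample_8966, Sample_8972, Sample_491 or Sample_797. On FGF21 it gave 0 to 2 nuclear (without Sample_8974 or Sample_8958) and 0 to 1 mt-encoded members (without Sample_8974). The median interaction ranged from -0.36 (without Sample_8958) to 0.20 (without Sample_8990) over the nuclear and from -0.37 (without Sample_8974) to 0.32 (without Sample_8990) over the mt-encoded members. The medians between genotypes ranged from -0.07 to 0.05 (nuclear) and 0.09 to 0.26 (mt-encoded) on vehicle, and from -0.37 to 0.16 and -0.19 to 0.50 on FGF21. For FGF21 against vehicle they ranged from -0.08 to 0.51 and -0.18 to 0.51 in controls and from -0.03 to 0.18 and -0.10 to 0.08 in Lmna ADKO livers. For the 47 named members, 5652 of 5672 values under alternatives kept their side of the thresholds, 18 gained a call and 2 (both mt-Nd5) lost it, and 557 had another sign with no call in either fit. Fold changes of members at 7 counts or fewer, Cox6a2 among them, rest on few reads.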
